A study of Mus musculus with 21 samples.

Results

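The 36 genes described here encode the DNA replication machinery and the regulators of S phase, the stage of the cell cycle in which the genome is copied. They were taken by name, and each was matched to array probes through the RefSeq accession of the probe. All 36 were found among the 37208 entries of the array, of which 20145 carry a gene symbol. MIN6m9 is a subclone of MIN6, a mouse insulinoma line that keeps many traits of the pancreatic beta cell. RNA from these cells was measured on 21 Agilent arrays labelled with Cy3, in a fatty acid experiment and a PERK experiment. In the fatty acid experiment, wild-type cells were left untreated or received 400 uM palmitate, a saturated fatty acid, or 400 uM oleate, a monounsaturated one, for 48 h (3 arrays per group). The PERK experiment has 6 groups of 2 arrays. Cells of genotype Fv2E-PERK were either mock-treated or exposed to 1 nM AP20187 lasting 6, 12, 24 or 48 h, and the sixth group is wild-type cells, also mock-treated. Fv2E-PERK joins the kinase domain of PERK, a sensor of unfolded protein in the endoplasmic reticulum, to a module that AP20187 brings together, so that the kinase is switched on without any other stress. The vehicle was ethanol. The sources used here do not give the promoter that drives Fv2E-PERK, whether the cells are a single clone, or when untreated and mock-treated cells were harvested. Wild-type cells given AP20187 were not analysed here.

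As background, replication starts at origins, where the origin recognition complex, Cdc6 and Cdt1 load a ring of Mcm2 to Mcm7 onto DNA during G1. In S phase, Cdc45, the GINS complex and Mcm10 turn that ring into a running helicase, replication factor C loads the Pcna clamp, and the DNA polymerases, primase, Rpa, Fen1 and Lig1 complete the new strands. Many of these genes are targets of E2F transcription factors, which are released when cyclin-dependent kinases phosphorylate the retinoblastoma protein, and adult beta cells enter this programme rarely whereas insulinoma lines divide continually.

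Promoters are shown first because the members differed in an E2F-like sequence that the choice of genes did not use. Windows from 250 bases before to 50 bases after the annotated start (300 bases, RefSeq, build GRCm38.p6) were held for 29 of the 36 members, with 33 windows in all. Each was searched on both strands for the 4 words TTTCGCGC, TTTGGCGC, TTTCCCGC and TTTGCCGC, and places where words overlap were counted once. At least 1 word stood in 12 of 33 member windows (36.4%), in 20 of 67 windows of further replication genes (29.9%), in 1 of 21 windows of mitosis genes (4.76%) and in 744 of all 32851 windows (2.26%). The shorter word CCAAT, the core of NF-Y sites, stood in 57.6% of member windows, 47.8% of further replication windows, 90.5% of mitosis windows and 37.4% of all windows. The 12 genes with an E2F word were Mcm3, Mcm5, Mcm6, Mcm7, Cdc6, Cdt1, Orc1, Gins3, Rfc3, Pola1, Pold1 and Lig1. A match is a description of letters and does not show that a factor binds there. The windows below are of 5 members that hold a word and of Mcm10, which holds none. Capitals mark the E2F words. In Mcm5 and in the upstream place in Mcm6 a pair of words on opposite strands overlaps, so the capitals run over both. The Mcm5 window lies at chr8:75109259-75109558 (plus strand), Mcm6 at chr1:128359656-128359955 (minus strand), Cdt1 at chr8:122567765-122568064 (plus strand), Rfc3 at chr5:151651159-151651458 (minus strand), Gins3 at chr8:95633309-95633608 (plus strand) and Mcm10 at chr2:5012742-5013041 (minus strand).
Mcm5: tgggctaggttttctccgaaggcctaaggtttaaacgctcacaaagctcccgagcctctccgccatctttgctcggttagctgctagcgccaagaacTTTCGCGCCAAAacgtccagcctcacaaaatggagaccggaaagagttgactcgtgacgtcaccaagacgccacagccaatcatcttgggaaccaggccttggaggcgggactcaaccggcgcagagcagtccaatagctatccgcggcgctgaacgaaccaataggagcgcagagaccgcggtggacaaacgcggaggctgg
Mcm6: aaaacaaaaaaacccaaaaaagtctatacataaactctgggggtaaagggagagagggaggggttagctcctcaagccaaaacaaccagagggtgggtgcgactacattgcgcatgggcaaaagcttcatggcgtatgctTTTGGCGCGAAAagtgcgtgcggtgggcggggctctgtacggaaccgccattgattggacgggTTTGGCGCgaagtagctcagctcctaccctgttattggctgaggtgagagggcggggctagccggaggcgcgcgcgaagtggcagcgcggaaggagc
Cdt1: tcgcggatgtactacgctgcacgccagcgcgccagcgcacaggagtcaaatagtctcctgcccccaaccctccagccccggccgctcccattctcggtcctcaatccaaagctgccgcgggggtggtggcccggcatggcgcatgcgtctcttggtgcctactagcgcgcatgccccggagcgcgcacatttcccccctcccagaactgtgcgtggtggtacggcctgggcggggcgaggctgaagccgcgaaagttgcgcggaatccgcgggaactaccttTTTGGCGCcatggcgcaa
Rfc3: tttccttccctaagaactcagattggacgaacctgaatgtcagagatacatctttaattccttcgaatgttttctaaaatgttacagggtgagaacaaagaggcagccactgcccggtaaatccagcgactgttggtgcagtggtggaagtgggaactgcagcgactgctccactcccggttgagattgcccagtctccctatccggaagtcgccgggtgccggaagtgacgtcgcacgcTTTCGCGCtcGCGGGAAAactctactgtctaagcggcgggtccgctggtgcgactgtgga
Gins3: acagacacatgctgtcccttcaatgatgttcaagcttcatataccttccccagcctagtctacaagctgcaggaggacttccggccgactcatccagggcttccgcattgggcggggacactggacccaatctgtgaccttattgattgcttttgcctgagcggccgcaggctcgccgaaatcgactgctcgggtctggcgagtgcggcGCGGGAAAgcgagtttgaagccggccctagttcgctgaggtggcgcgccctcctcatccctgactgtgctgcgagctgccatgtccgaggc
Mcm10: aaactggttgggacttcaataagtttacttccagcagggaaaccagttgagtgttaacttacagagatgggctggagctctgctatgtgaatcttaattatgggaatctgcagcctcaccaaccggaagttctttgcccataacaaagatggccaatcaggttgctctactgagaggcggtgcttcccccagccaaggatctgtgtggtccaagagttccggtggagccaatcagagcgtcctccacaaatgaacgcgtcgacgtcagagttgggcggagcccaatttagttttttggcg

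Counting the first transcribed base as 1 and the base before it as -1, the Mcm5 words span -153 to -142, the Cdt1 word spans 33 to 40, and the Rfc3 words span -10 to -3 and 1 to 8, on either side of the start. As the following paragraphs show, Mcm5, Mcm6, Cdt1 and Rfc3 rose with AP20187 in Fv2E-PERK cells, and Gins3 fell. Mcm10, which has none of the 4 words in this window, had the largest rise of the 36. The Mcm10 window ends in TTTGGCG, which is TTTGGCGC without its last letter. The base after the window was not searched, so a word across that edge would have been missed.

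Signals are log2 values relative to the 75th percentile of the same array, so a difference of 1 is a doubling, and levels of different probes are not set against each other. A probe was called well above background by the scanner software. A gene was tested in an experiment if its probe was so called in every array of some group there, which left 21279 entries and 35 members in the fatty acid experiment and 23386 entries and all 36 members in the PERK experiment. Ccne2 was well above background on 15 of 21 arrays and was not tested in the fatty acid experiment, and the spot of Rpa2 on palmitate replicate 2 was an outlier, so the fit used 8 arrays for that gene. Rose and fell mean an adjusted p under 0.05 (limma, Benjamini-Hochberg over all entries), and ± gives the standard error of a log2 change. The labels do not say that replicates came from separate cultures, so the spread that p-values rest on may be technical, and they speak only for these samples.

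Some arrays stood apart. The log2 difference between replicates had an SD over all entries of 0.688 and 0.665 for the pairs with untreated replicate 2, against 0.29 to 0.39 for all other pairs. The median signal of 8 beta cell markers was 4.85 on that array and 6.74 to 7.01 on the other fatty acid arrays. The median of 9 heart muscle markers was -0.93 to 0.19 on the untreated and oleate arrays, with 8 or 9 well above background, and -6.81 to -4.47 on the palmitate arrays, with 3 to 5. The median of 15 skeletal muscle markers was 0.02 and 0.17 on palmitate replicates 1 and 2, with 14 well above background, and at most -4.78 on the other fatty acid arrays. On the PERK arrays the beta cell median was 6.80 to 7.01 on the mock arrays of both genotypes and 5.83 to 6.34 on the AP20187 arrays, the heart muscle median at most -4.06 and the skeletal muscle median at most -4.79. Markers of mesenchymal, endothelial and immune cells had medians of -6.05 to -3.90 over the 21 arrays, with 2 to 4 of 7 well above background, and 0 to 2 of 5 exocrine markers were well above background. In these bulk samples, fewer cells of a type and less RNA per cell cannot be told apart. In the fatty acid experiment palmitate replicate 3 lay on a slide of its own and the other 8 arrays shared another. In the PERK experiment the Fv2E-PERK mock, 6, 12 and 24 h arrays shared 1 slide and the wild-type mock and 48 h arrays shared another. Slide and group therefore cannot be told apart for 48 h against mock, 48 h against 6 h, and Fv2E-PERK mock against wild-type mock.

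Most of the replication genes were higher in Fv2E-PERK cells after 6 h of AP20187 than in Fv2E-PERK mock. An effect of AP20187 in cells without Fv2E-PERK was not tested. At 6 h 24 members rose and 2 fell, against 24.9% of all entries that rose and 40% that fell. At 12 h 26 rose and 2 fell, against 27.1% and 40.5% of all entries, and at 24 h 26 rose and 4 fell, against 27% and 40.4%. At 48 h 19 rose and 9 fell, against 27.2% and 34.6%. The median change of the members was 0.54, 0.78, 0.79 and 0.34 at 6, 12, 24 and 48 h, where the median of all entries was -0.23, -0.19, -0.20 and -0.07. Scaling to the spike-in controls instead of the 75th percentile moved the median of all entries up by 0.65, 0.76, 0.98 and 0.75. Under that scaling 88.9 to 94.4% of all calls were higher rather than 38.4 to 44%, the members that rose numbered 30, 33, 35 and 26, and those that fell numbered 0 at each time. All 24, 26, 26 and 19 rises also passed with spike-in scaling, and 0 of the 2, 2, 4 and 9 falls passed as falls. That scaling moved every entry of a comparison up alike, so the passing of the rises is no separate support for them. These 4 comparisons share the mock arrays. The lower beta cell marker level on the AP20187 arrays moved with the rises, and its part in them was not tested.

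**Figure D1:**
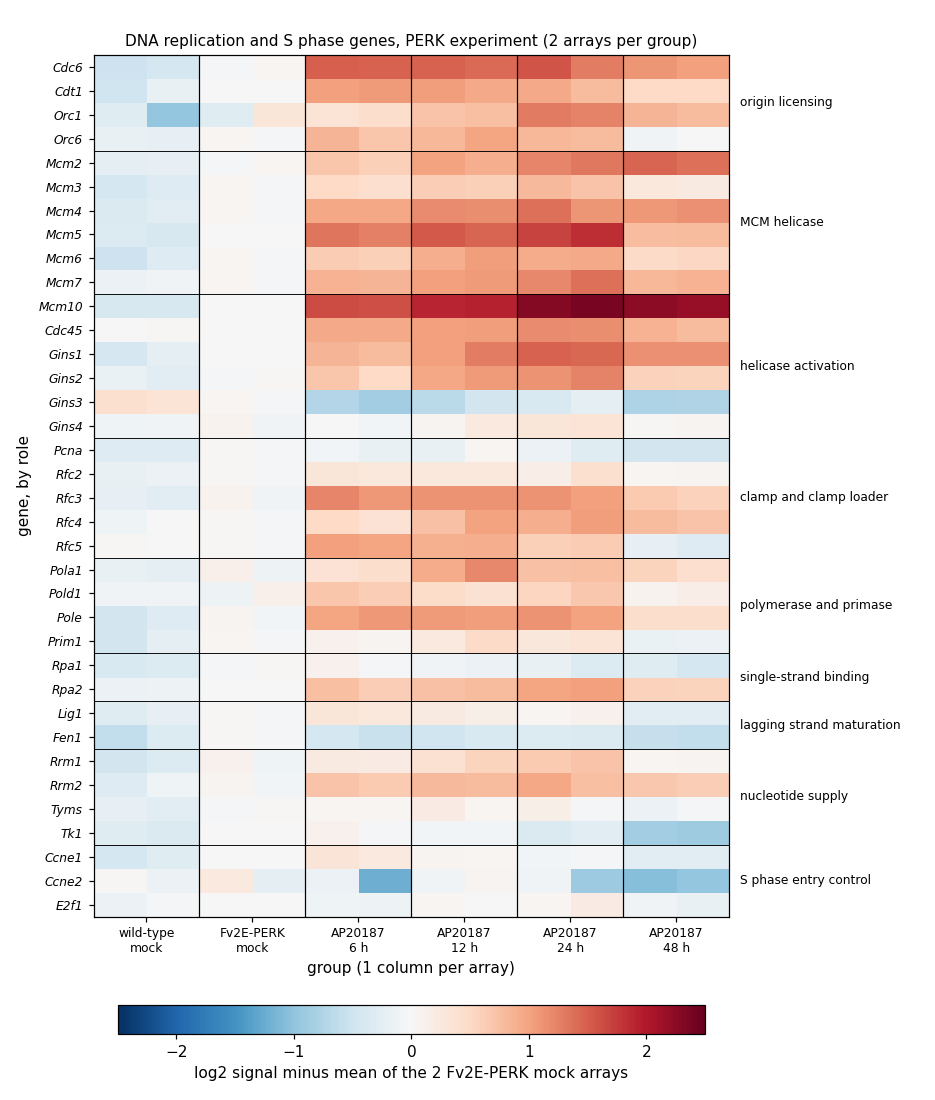
The 36 members by role (rows) on the 12 arrays of the PERK experiment (columns, 2 per group), coloured by log2 signal minus the mean of the 2 Fv2E-PERK mock arrays. Mcm10, Mcm5 and Cdc6 are the deepest red at 6 and 12 h, and Mcm10 remains so at the later times. Gins3 and Fen1 are blue at all 4 times, falls that did not stand when arrays were scaled to the spike-in controls.

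Origin licensing genes rose early. Cdc6, the ATPase that helps the origin recognition complex load the helicase, was at -0.01 and 0.09 on mock arrays, then 1.54 and 1.51 (6 h), 1.52 and 1.45 (12 h), 1.61 and 1.31 (24 h), and 1.15 and 1.06 (48 h). Every AP20187 array lay above both mock arrays. Its change was 1.49 ± 0.10 at 6 h (2 arrays per group, adjusted p = 1.1e-05) and 1.06 ± 0.10 at 48 h (adjusted p = 5.8e-05). A second, dimmer Cdc6 probe changed by only 0.39, 0.05, -0.10 and 0.28 at 6, 12, 24 and 48 h, so the Cdc6 rise rests on the probe used and was near 0 at 12 h and turned at 24 h on the other. Cdt1, the loader that geminin inhibits, was at 4.66 and 4.68 on mock arrays, then 5.70 and 5.73 (6 h), 5.71 and 5.62 (12 h), 5.61 and 5.46 (24 h), and 5.17 and 5.16 (48 h). It thus lay highest at 6 and 12 h, with a change of 1.04 ± 0.11 at 6 h (adjusted p = 7.1e-05), and the 48 h arrays lay between the mock and the earlier ones. Orc6, a subunit of the origin recognition complex, was at 5.12 and 5.03 on mock arrays, then 5.92 and 5.77 (6 h), 5.91 and 6.06 (12 h), 5.90 and 5.87 (24 h), and 4.99 and 5.06 (48 h). It rose by 0.77 ± 0.08 at 6 h (adjusted p = 9.5e-05) and at 48 h its arrays overlapped those of mock, with a change of -0.05 ± 0.08 (adjusted p = 0.65). Orc1, the largest subunit, was dimmer and more scattered, at -3.03 and -2.44 on mock arrays, then -2.39 and -2.29 (6 h), -2.02 and -1.98 (12 h), -1.43 and -1.50 (24 h), and -1.88 and -1.94 (48 h). Its change did not pass at 6 h (0.40 ± 0.23, adjusted p = 0.17) and did at 24 h (1.27 ± 0.23, adjusted p = 0.0015).

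All 6 subunits of the MCM helicase rose at each of the 4 times, with median changes of 0.76, 1.01, 1.25 and 0.81. Mcm5 was at 4.40 and 4.42 on mock arrays, then 5.75 and 5.67 (6 h), 5.94 and 5.87 (12 h), 6.09 and 6.26 (24 h), and 5.18 and 5.20 (48 h). It rose 2.46-fold at 6 h (1.30 ± 0.08, adjusted p = 5.7e-06) and 3.41-fold at 24 h (1.77 ± 0.08, adjusted p = 1.3e-06), and its 48 h arrays lay below all other AP20187 arrays while still above mock. Mcm2 took another course. Its arrays stood at 3.64 and 3.72 for mock, then 4.38 and 4.28 (6 h), 4.68 and 4.59 (12 h), 4.91 and 4.99 (24 h), and 5.14 and 5.06 (48 h). Each later pair of Mcm2 arrays lay above every earlier one, and the change reached 1.41 ± 0.08 at 48 h (adjusted p = 3.3e-06). Mcm4 was at 5.08 and 4.97 on mock arrays, then 6.00 and 6.00 (6 h), 6.21 and 6.18 (12 h), 6.41 and 6.13 (24 h), and 6.10 and 6.16 (48 h), so it held a rise of 1.1 ± 0.10 at 48 h (adjusted p = 3.6e-05). Mcm7 was at 5.13 and 5.02 on mock arrays, then 5.95 and 5.92 (6 h), 6.10 and 6.13 (12 h), 6.28 and 6.46 (24 h), and 5.90 and 5.94 (48 h). Both of these subunits lay clear of mock at every time. Mcm3 and Mcm6 rose less, by 0.77 ± 0.08 and 0.94 ± 0.09 at 24 h, and by 0.25 ± 0.08 (adjusted p = 0.025) and 0.50 ± 0.09 (adjusted p = 0.0012) at 48 h.

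Mcm10, which helps to start the loaded helicase, changed most of the 36. Its signal was 2.24 and 2.24 on mock arrays, then 3.87 and 3.85 (6 h), 4.14 and 4.17 (12 h), 4.54 and 4.62 (24 h), and 4.48 and 4.42 (48 h). The rise was 3.06-fold at 6 h (1.61 ± 0.07, adjusted p = 1.2e-06), 5.05-fold at 24 h (2.34 ± 0.07, adjusted p = 2.3e-07) and 4.63-fold at 48 h (2.21 ± 0.07, adjusted p = 2.6e-07). The GINS complex, a ring of Gins1 to Gins4 that travels with the helicase, did not change as a unit. Gins1 was at 1.31 and 1.28 on mock arrays, then 2.14 and 2.09 (6 h), 2.33 and 2.57 (12 h), 2.77 and 2.73 (24 h), and 2.44 and 2.43 (48 h), a rise of 1.46 ± 0.10 at 24 h (adjusted p = 6.4e-06). Gins3 was at 5.70 and 5.59 on mock arrays, then 4.92 and 4.78 (6 h), 4.97 and 5.18 (12 h), 5.27 and 5.43 (24 h), and 4.88 and 4.90 (48 h). All 8 AP20187 arrays of Gins3 lay below mock, with a change of -0.79 ± 0.10 at 6 h (adjusted p = 2.0e-04), but with spike-in scaling that change was -0.14 (adjusted p = 0.69) and the 24 h change was 0.69 (adjusted p = 0.023). Gins2 rose at all 4 times, by 1.18 ± 0.09 at 24 h, and Gins4 passed only at 24 h (0.32 ± 0.09, adjusted p = 0.012). A scaling shifts all genes of an array alike, so Gins3 and its partners changed unequally under both. Cdc45, the third part of the running helicase, was at -0.61 and -0.61 on mock arrays, then 0.34 and 0.33 (6 h), 0.42 and 0.43 (12 h), 0.57 and 0.56 (24 h), and 0.26 and 0.19 (48 h), and rose by 0.94 ± 0.06 at 6 h (adjusted p = 7.9e-06).

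**Figure D2:**
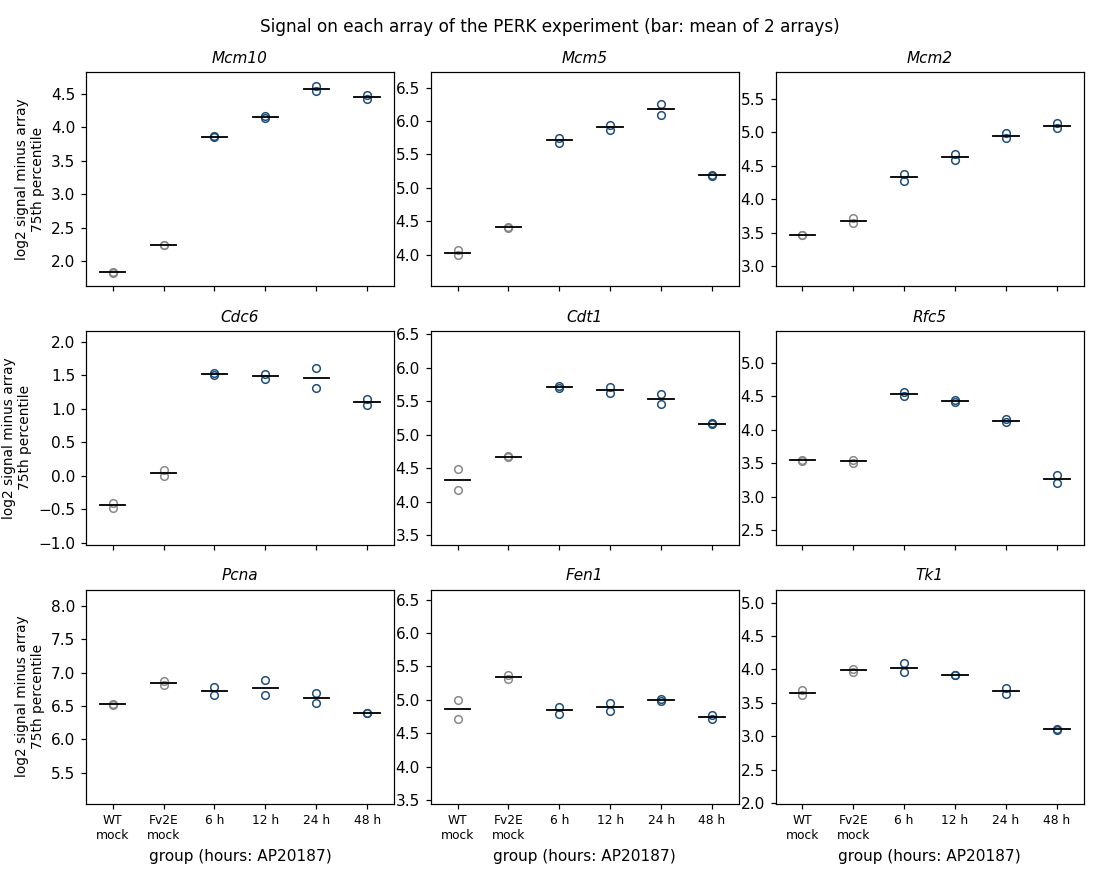
Log2 signal minus the array's 75th percentile for 9 members on each array of the PERK experiment, with every panel spanning the same height. Mcm10 rises from 2.24 on mock arrays to 4.54 and 4.62 at 24 h, Mcm2 is highest at 48 h, Rfc5 falls from its 6 h level to 3.33 and 3.20 at 48 h, and the Fen1 fall against mock was turned when arrays were scaled to the spike-in controls.

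The clamp and its loader differed. Pcna, the sliding clamp of the polymerases, was at 6.88 and 6.82 on mock arrays, then 6.79 and 6.67 (6 h), 6.66 and 6.89 (12 h), 6.70 and 6.55 (24 h), and 6.40 and 6.39 (48 h). It passed at none of the first 3 times (adjusted p = 0.31, 0.53 and 0.07) and was lower at 48 h by 0.45 on the log2 scale (-0.45 ± 0.10, adjusted p = 0.0039), a change that was 0.02 after quantile normalization and 0.30 with spike-in scaling, neither of which passed. Rfc3, a small subunit of the loader, was at 1.93 and 1.76 on mock arrays, then 3.06 and 2.93 (6 h), 2.97 and 2.97 (12 h), 2.96 and 2.88 (24 h), and 2.49 and 2.43 (48 h). The first 3 times lay between 2.88 and 3.06, above mock, with a change of 1.15 ± 0.08 at 6 h (adjusted p = 1.2e-05), and 48 h lay between. Rfc5 was at 3.55 and 3.51 on mock arrays, then 4.56 and 4.51 (6 h), 4.42 and 4.44 (12 h), 4.12 and 4.16 (24 h), and 3.33 and 3.20 (48 h). Its rise of 1.00 ± 0.07 at 6 h (adjusted p = 1.0e-05) shrank at each later time, and at 48 h the gene was below mock by -0.27 ± 0.07 (adjusted p = 0.0097), which spike-in scaling turned to 0.48 (adjusted p = 0.091). Rfc4 rose at all 4 times, by 0.97 ± 0.11 at 24 h, and Rfc2 by 0.28 ± 0.09 at 6 and 24 h (adjusted p = 0.019 at both).

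All 4 polymerase and primase genes rose at 12 and 24 h. Pole, the catalytic subunit of the leading strand polymerase, was at 3.04 and 2.92 on mock arrays, then 3.97 and 4.06 (6 h), 4.05 and 4.02 (12 h), 4.11 and 3.98 (24 h), and 3.41 and 3.41 (48 h). The first 3 times formed a plateau 1.03 to 1.06 above mock, and the 48 h change was 0.43 ± 0.08 (adjusted p = 0.0024). Pola1, which extends the primer, was highest at 12 h, at 3.41 and 3.68 against 2.61 and 2.36 on mock arrays (1.06 ± 0.12, adjusted p = 7.9e-05). Pold1, of the lagging strand polymerase, rose by 0.65 ± 0.10 at 6 h (adjusted p = 6.2e-04) and Prim1, the primase subunit, by 0.35 ± 0.10 at 12 h (adjusted p = 0.013), and neither passed at 48 h (adjusted p = 0.29 and 0.21). Of the single-strand binding proteins, Rpa2 was at 1.56 and 1.54 on mock arrays, then 2.31 and 2.16 (6 h), 2.28 and 2.34 (12 h), 2.53 and 2.58 (24 h), and 2.12 and 2.11 (48 h). Rpa1, its partner in the same complex, did not rise at any time. Its changes were 0.04 ± 0.09, -0.12 ± 0.09, -0.26 ± 0.09 (adjusted p = 0.03) and -0.37 ± 0.09 (adjusted p = 0.0071), and the last 2 of these were 0.72 (adjusted p = 0.014) and 0.37 (adjusted p = 0.19) with spike-in scaling.

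The genes that finish the lagging strand differed from each other, and neither kept a rise to 48 h as the helicase did. Fen1, the nuclease that trims the flap of each Okazaki fragment, was at 5.38 and 5.31 on mock arrays, then 4.90 and 4.79 (6 h), 4.84 and 4.96 (12 h), 5.01 and 4.99 (24 h), and 4.77 and 4.72 (48 h). All 8 AP20187 arrays lay below both mock arrays. The change was -0.50 ± 0.10 at 6 h (adjusted p = 0.0026) and -0.60 ± 0.10 at 48 h (adjusted p = 0.0011), and with spike-in scaling it was 0.15 at both times, neither of which passed. Lig1, the ligase that seals the fragments, was at 5.0 and 4.94 on mock arrays, then 5.27 and 5.23 (6 h), 5.19 and 5.12 (12 h), 5.01 and 5.08 (24 h), and 4.70 and 4.71 (48 h). Lig1 rose by 0.28 ± 0.07 at 6 h (adjusted p = 0.0079) and by 0.18 at 12 h. The 12 h call was lost in 8 of the 12 fits that each left out 1 array. At 48 h Lig1 was at -0.26 ± 0.07 (adjusted p = 0.011), which was 0.02 after quantile normalization and 0.48 with spike-in scaling.

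Nucleotide supply was split. Rrm2, the S phase subunit of ribonucleotide reductase, was at 3.47 and 3.35 on mock arrays, then 4.13 and 4.07 (6 h), 4.22 and 4.20 (12 h), 4.37 and 4.16 (24 h), and 4.09 and 4.02 (48 h). All AP20187 arrays lay above mock, with a change of 0.69 ± 0.10 at 6 h (adjusted p = 5.0e-04). Rrm1, the large subunit, rose later, by 0.47 ± 0.10 at 12 h (adjusted p = 0.0032) and 0.68 ± 0.10 at 24 h (adjusted p = 4.0e-04). Tk1, the thymidine kinase of the salvage pathway, was at 4.0 and 3.97 on mock arrays, then 4.09 and 3.96 (6 h), 3.92 and 3.92 (12 h), 3.63 and 3.72 (24 h), and 3.11 and 3.10 (48 h). Tk1 was near mock at 6 and 12 h and then went down to -0.88 ± 0.07 at 48 h (adjusted p = 2.5e-05), which was -0.14 with spike-in scaling (adjusted p = 0.64). Tyms, the thymidylate synthase, passed at no time (changes of 0.05, 0.13, 0.05 and -0.10, each ± 0.09).

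The regulators of S phase entry on the list moved little or late. E2f1, the founding E2F activator, was at 2.93 and 2.90 on mock arrays, then 2.81 and 2.79 (6 h), 2.97 and 2.93 (12 h), 2.97 and 3.12 (24 h), and 2.83 and 2.72 (48 h). Its changes of -0.11, 0.04, 0.13 and -0.13 (each ± 0.08) did not pass. Ccne1, a cyclin that activates Cdk2 at the start of S phase, was at 4.21 and 4.19 on mock arrays, then 4.53 and 4.45 (6 h), 4.26 and 4.25 (12 h), 4.14 and 4.17 (24 h), and 3.93 and 3.94 (48 h). It was up at 6 h by 0.29 ± 0.07 (adjusted p = 0.0073) and down at 48 h by -0.26 ± 0.07 (adjusted p = 0.012; 0.48 with spike-in scaling), and a dimmer second Ccne1 probe changed by 0.43 and -0.15 at these times. Ccne2, its paralog, was dim and scattered, at -2.45 and -2.95 on mock arrays, then -2.84 and -3.92 (6 h), -2.79 and -2.63 (12 h), -2.78 and -3.60 (24 h), and -3.76 and -3.67 (48 h). Its only call was at 48 h (-1.01 ± 0.37, adjusted p = 0.041), and it was lost in 7 of the 12 fits that each left out 1 array.

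The time of the highest level varied with the gene. Over the 6 groups of the PERK experiment, the mean was highest at 24 h for 16 members, at 6 h for 10, at 12 h for 5 and at 48 h for Mcm2 alone, while 3 were highest in Fv2E-PERK mock and Gins3 in wild-type mock. For 11 of the 16 members with the highest mean at 24 h, both 24 h arrays lay above all 10 others. The mean was lowest in wild-type mock for 27 members and at 48 h for 7. These are the groups on the other slide, so for orders that cross the slides, slide and group cannot be told apart. No such counts were made over all entries, so they do not show that this order is particular to the members. At 24 h, 10 of the 12 members with an E2F word in the promoter window rose and 1 fell, with a median change of 0.90, against 10 and 3 of the 17 with a window but no word, with a median of 0.61. At 48 h these counts were 9 and 2 of 12 (median 0.49) against 6 and 6 of 17 (median -0.10). The subset without a word includes Mcm10, whose window may cut a word at its edge. The difference between these subsets was not tested.

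Other genes of the cell cycle were read beside the members. Of 64 further replication genes tested, 42, 43, 47 and 30 rose and 6, 7, 8 and 15 fell at 6, 12, 24 and 48 h, with 0 falls at any time under spike-in scaling. Of all entries, 24.9, 27.1, 27 and 27.2% rose and 40, 40.5, 40.4 and 34.6% fell at these times. Ticrr, which helps to fire origins, rose by 2.47 ± 0.12 at 6 h (adjusted p = 2.8e-06). Recql4, a helicase needed for origin firing, rose by 1.68 ± 0.08 at 6 h and 2.79 ± 0.08 at 48 h (adjusted p = 2.6e-07). The 23 mitosis genes took another course, with 9, 10, 7 and 1 higher and 7, 6, 9 and 17 lower, and a median change of 0.20, 0.14, -0.05 and -0.76. At 48 h Aurkb, the kinase of the chromosomal passenger complex, was at -2.64 ± 0.26 (adjusted p = 5.4e-05) and Nusap1, a spindle protein, at -1.22 ± 0.09 (adjusted p = 1.4e-05). With spike-in scaling Aurkb was at -1.89 (adjusted p = 5.8e-05) and Nusap1 at -0.47 (adjusted p = 0.11), and of the 23 genes 2 fell and 4 rose. Mcm10 and Mcm2 were thus near their highest levels at a time when most of the mitosis list was below mock on the percentile scale.

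**Figure D3:**
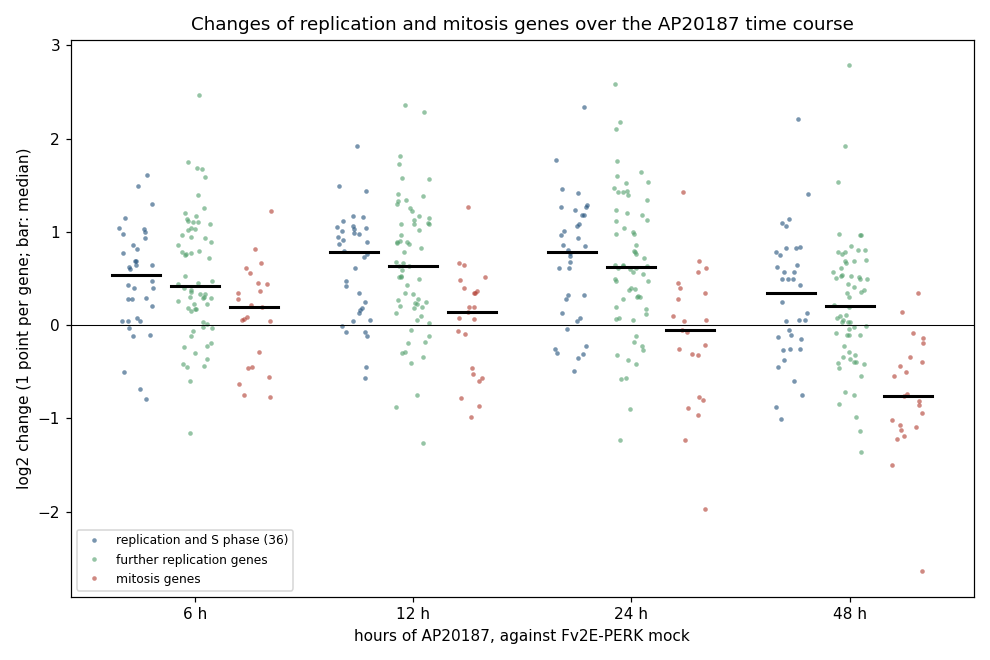
Log2 change against Fv2E-PERK mock (vertical axis, 1 point per gene, bars at the list medians) at 6, 12, 24 and 48 h of AP20187 for the 36 members, 64 further replication genes and 23 mitosis genes. The members' medians run 0.54, 0.78, 0.79 and 0.34, while the mitosis median goes from 0.20 to -0.76 and most mitosis falls were lost when arrays were scaled to the spike-in controls.

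Among 18 tested regulators of the G1 to S transition, 7 rose and 6 fell at 6, 12 and 24 h, and 3 rose and 7 fell at 48 h. At 6 h 38.9% of them rose and 33.3% fell, against 24.9% and 40% of all entries. At 48 h these shares were 16.7% and 38.9%, against 27.2% and 34.6%. The falls were near the share of all entries, so these counts are not read as a response of the list. Spike-in scaling gave 8, 11, 12 and 9 that rose and 1, 1, 1 and 2 that fell over the 4 times. Myc, a transcription factor that drives cell growth, rose by 2.51 ± 0.13 at 6 h (adjusted p = 2.9e-06) and 3.45 ± 0.13 at 24 h (adjusted p = 5.9e-07). Cdkn2c, an inhibitor of the cyclin D kinases, fell by 1.45 on the log2 scale at 6 h and by 1.86 at 24 h (adjusted p = 5.4e-06 and 1.5e-06), and with spike-in scaling the changes were -0.80 and -0.88, which also passed. Ccnd2, a D cyclin, rose by 1.39 ± 0.12 at 6 h, and Cdkn1a, the inhibitor p21, rose by 1.01 ± 0.07 at 24 h and 1.52 ± 0.07 at 48 h (adjusted p = 1.9e-06). Inhibitors of the cycle thus went in both directions in the samples in which the replication genes were raised.

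From 6 h to 48 h the members moved down more often than up, with 15 lower and 4 higher, against 27.6% and 33.2% of all entries. The median change was -0.15, and that of all entries 0.10. Rfc5 had the largest fall, from 4.56 and 4.51 to 3.33 and 3.20 (-1.27 ± 0.07, adjusted p = 6.2e-06), followed by Tk1 (-0.92 ± 0.07, adjusted p = 2.6e-05) and Orc6 (-0.81 ± 0.08, adjusted p = 9.0e-05). Those 3 falls also passed with spike-in scaling, which left 3 lower and 2 higher. Mcm2 (0.77 ± 0.08, adjusted p = 7.3e-05) and Mcm10 (0.60 ± 0.07, adjusted p = 1.2e-04) were higher at 48 h than at 6 h, and so were Gins1 and Rfc4 (0.32 each, adjusted p = 0.02 and 0.032). Time and slide cannot be told apart here. Mitosis genes moved further, with 21 of 23 lower and a median of -0.87.

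Without AP20187, the Fv2E-PERK cells already had somewhat more of these transcripts than wild-type cells. In the mock comparison 14 members were higher and 1 was lower, against 9.23% and 10.8% of all entries, with a median of 0.25 where that of all entries was -0.05. Fen1 was at 5.38 and 5.31 in Fv2E-PERK mock and 4.72 and 5.0 in wild-type mock (0.49 ± 0.10, adjusted p = 0.013), and Mcm10 at 2.24 and 2.24 against 1.83 and 1.84 (0.40 ± 0.07, adjusted p = 0.0043). The groups did not overlap for either gene. Gins3 went the other way, at 5.70 and 5.59 against 6.05 and 5.98 (-0.37 ± 0.10, adjusted p = 0.034). The genotypes lay on different slides, and these calls were fragile. They numbered 3 to 15 higher when single arrays were left out (3 without Fv2E-PERK mock replicate 1, 4 and 9 without wild-type mock replicates 1 and 2, 7 without Fv2E-PERK mock replicate 2) and 0 with spike-in scaling.

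The 48 h arrays shared a slide with the wild-type mock arrays, so that comparison, which also differs in genotype and was added after the slides had been seen, is free of the slide. There 21 members were higher and 3 lower, against 27.5% and 36.3% of all entries, with a median of 0.66 where that of all entries was -0.10. Mcm10 was at 4.48 and 4.42 against 1.83 and 1.84, a 6.12-fold difference (2.61 ± 0.07, adjusted p = 8.1e-08), and Mcm2 at 5.14 and 5.06 against 3.46 and 3.47 (1.64 ± 0.08, adjusted p = 1.1e-06). Cdc6 and Gins1 followed at 1.54 ± 0.10 and 1.46 ± 0.10. All 6 MCM helicase genes were higher. The 3 lower members were Gins3 (-1.13 ± 0.10, adjusted p = 2.5e-05), Tk1 (-0.55 ± 0.07, adjusted p = 2.4e-04) and Rfc5 (-0.28 ± 0.07, adjusted p = 0.0074), none of which passed with spike-in scaling, where Tk1 and Rfc5 were at 0.25 and 0.52. That scaling gave 32 members higher and 0 lower, with a median of 1.46.

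Part of the same set was lower by small amounts on the palmitate arrays. These calls depended on the arrays and the scaling, as given below, and 0 members were lower with spike-in scaling. Against untreated cells 13 of 35 members were lower and 0 higher, against 12.6% and 7.41% of all entries, with a median of -0.18 where that of all entries was -0.05. Fen1 was at 5.54, 5.69 and 5.62 on untreated arrays and 5.17, 5.28 and 5.40 on palmitate arrays, so it fell by 20.4% (-0.33 ± 0.07, adjusted p = 0.016). Mcm4 was at 5.43, 5.64 and 5.41 against 5.13, 5.24 and 5.16 (-0.32 ± 0.08, adjusted p = 0.026), and Cdc45 at 0.30, 0.28 and 0.21 against 0.00, 0.01 and -0.11 (-0.30 ± 0.06, adjusted p = 0.017). In each of these genes the groups did not overlap. Orc6 was at 5.01, 5.24 and 5.18 against 4.81, 4.81 and 4.93 (-0.29 ± 0.07, adjusted p = 0.023), and Rfc3 at 1.95, 1.89 and 1.82 against 1.63, 1.67 and 1.62 (-0.25 ± 0.05, adjusted p = 0.01). Gins2 stood at 2.13, 2.13 and 2.10 against 1.91, 1.84 and 1.92 (-0.23 ± 0.04, adjusted p = 0.009). The other 7 were Mcm3, Mcm5, Mcm7, Mcm10, Rfc2, Rfc5 and Lig1, with changes of -0.27 to -0.21.

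By role, the members lower with palmitate were 4 of 6 MCM helicase genes, 3 of 6 genes of helicase activation and 3 of 5 of the clamp and its loader. Both genes of lagging strand maturation and 1 of 4 licensing genes were lower too. None of the polymerase, primase, nucleotide supply or entry control genes passed. Mcm2, whose own level peaked at 48 h of AP20187, was at 4.06, 4.07 and 3.99 on untreated and 4.03, 4.08 and 3.96 on palmitate arrays (-0.02 ± 0.05, adjusted p = 0.84), and the groups overlapped. E2f1 was at 3.16, 3.18 and 3.04 against 3.01, 3.09 and 3.13 (adjusted p = 0.59), Cdc6 at 0.37, 0.05 and 0.33 against 0.12, 0.20 and 0.36 (adjusted p = 0.91), and Ccne1 at 4.73, 4.76 and 4.68 against 4.65, 4.77 and 4.67 (adjusted p = 0.75). All of these overlapped. Pcna was at 6.54, 6.71 and 6.62 against 6.48, 6.54 and 6.50 (adjusted p = 0.22), and Cdt1 at 4.82, 4.98 and 4.76 against 4.53, 4.68 and 4.75 (adjusted p = 0.14). Tk1 was at 4.23, 3.50 and 4.14 against 3.70, 3.74 and 3.85 (adjusted p = 0.48), where the untreated spread came from replicate 2.

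**Figure D4:**
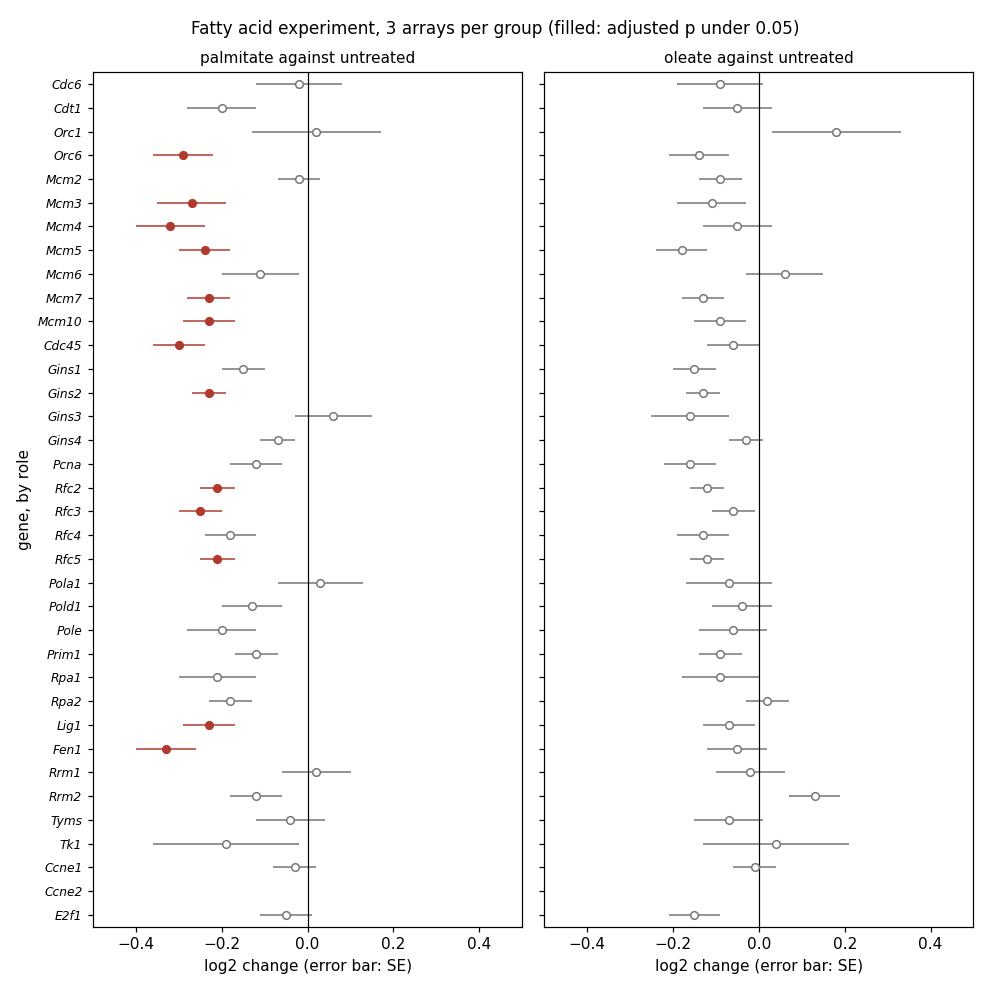
Log2 change ± SE of 35 members by role for palmitate (left) and oleate (right) against untreated cells, 3 arrays per group, with filled points at an adjusted p under 0.05 (Ccne2 was not tested). The 13 filled palmitate points lie between -0.33 and -0.21, no oleate point is filled, and no palmitate point passed when arrays were scaled to the spike-in controls.

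The palmitate calls depended on the arrays and the scaling. Leaving out single arrays left 5 to 12 members lower, with 5 without palmitate replicate 1, 6 without untreated replicate 2 and 8 without palmitate replicate 2, and 4 of the 13 (Cdc45, Gins2, Rfc2 and Rfc3) passed in all 9 such fits. Without palmitate replicates 1 and 2, which carry the skeletal muscle markers, 0 passed, but the changes of the 13 were then -0.37 to -0.16 and the median of the members was -0.13. That fit has 1 palmitate array, which is assumed to vary like the other groups and is alone on its slide, so slide and group cannot be told apart there. Cdc45 was at -0.37 (adjusted p = 0.066), Mcm4 at -0.33 (adjusted p = 0.14), Rfc3 at -0.26 (adjusted p = 0.084) and Fen1 at -0.21 (adjusted p = 0.17) in it. The skeletal muscle median of palmitate replicate 3, the array kept, was -6.59. The 13 were called in a fit that included this array, and the part of skeletal muscle RNA in their changes was not tested. With spike-in scaling, which moved the median of all entries by 0.21, 0 passed and the median of the members was 0.03. The heart muscle markers given above differ between the same groups, and their part in these changes was not tested.

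None of the 35 members passed with oleate against untreated cells (0 lower and 0 higher by limma, against 0.503% and 0.334% of all entries). Their median was -0.07 where that of all entries was -0.05. Over all entries 3460 had an unadjusted p under 0.05. Mcm5 was the farthest down, at 4.50, 4.57 and 4.55 against 4.84, 4.67 and 4.63 (-0.18 ± 0.06, adjusted p = 0.23). Rrm2 was at 4.53, 4.50 and 4.50 against 4.31, 4.45 and 4.38 (0.13 ± 0.06, adjusted p = 0.35). The groups did not overlap in either gene, but neither change passed.

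Set against oleate, 4 of 35 members (11.4%) were lower with palmitate and 0 were higher, against 6.27% and 7.48% of all entries. They were Fen1 (5.60, 5.58 and 5.50 against 5.17, 5.28 and 5.40, -0.28 ± 0.07, adjusted p = 0.041), Rrm2 (-0.25 ± 0.06, adjusted p = 0.038), Cdc45 (-0.24 ± 0.06, adjusted p = 0.047) and Rfc3 (-0.19 ± 0.05, adjusted p = 0.035). Rrm2 stood at 4.14, 4.32 and 4.32 on palmitate arrays, below all oleate arrays. None of the 4 passed in every fit that left out 1 array (0 to 5 members lower, with 0 without palmitate replicate 1 or 2 or oleate replicate 1 or 2, and 1 without palmitate replicate 3, oleate replicate 3 or untreated replicate 3), and 0 passed with spike-in scaling, which put Rfc3 at 0.02.

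Other cell cycle genes were lower with palmitate as well, where 12.6% of all entries were lower and 7.41% higher. Of 64 further replication genes, 15 were lower and Recql4 alone was higher (0.54 ± 0.05, adjusted p = 7.0e-04). Of 22 mitosis genes tested, 20 were lower and 0 higher, with a median of -0.34, among them Birc5, a subunit of the passenger complex (-0.58 ± 0.06, adjusted p = 5.5e-04), and Cdc20, an activator of the ubiquitin ligase of anaphase (-0.53 ± 0.05, adjusted p = 4.2e-04). Oleate lowered 0 and raised 0 genes of either list. With spike-in scaling 0 of both lists were lower with palmitate, and without palmitate replicates 1 and 2 the counts lower were 1 and 8, while Birc5 was at -0.51 and Cdc20 at -0.53, both of which passed. Myc (1.1 ± 0.22, adjusted p = 0.012) and Cdkn1a (0.92 ± 0.08, adjusted p = 4.4e-04) were higher with palmitate than in untreated cells. Without palmitate replicates 1 and 2 they were at 0.78 (adjusted p = 0.17) and 0.86 (adjusted p = 0.021).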

How the data were processed

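Total RNA of MIN6m9 cells was amplified and labelled with Cy3, per the labels' protocols, and arrays were scanned. The deposited spot intensity values are background-subtracted, per the file headers. Agilent Feature Extraction 10.7.1.1 had produced them, by the version given in the same headers. The deposited series matrix holds log2 values of the same arrays with column medians of -0.32 to 0.35. Differences between its columns followed the scanner values (r = 0.997 to 1), which gives its direction and log base, while the centring stays unknown.

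Control and outlier spots were left out, spots of a probe averaged, and log2 signals reduced by each array's 75th percentile (335.8 to 459.1 in the fatty acid and 380.5 to 823.3 in the PERK experiment, with a local background of 18 to 26 and 0 saturated probes). Each array had 46.8 to 56.9% of its probes well above background. Precision is limited by how few arrays a group has. Probes were named through RefSeq accessions (26582 of 55681 probes), and the probe with the highest mean over the 21 arrays stood for a gene. Each experiment was fitted with limma 3.58.1 (R 4.3.3, lmFit and eBayes, 1 coefficient per group, two-sided), with Benjamini-Hochberg adjustment over all entries at 0.05, and the scripts were tested on simulated data. Titles gave the groups, also where the source name of 1 wild-type mock array carries another replicate number. Values in every array were given for up to 6 called members per comparison with the largest change, for 10 named members and for those that moved against the rest, and the text adds others. For other lists, up to 4 genes per comparison were named from the largest called changes. A gene that this rule would name is not reported here. The members, lists and rules were chosen with earlier results of these data known. Alternatives were quantile normalization, normexp (offset 50, on median intensity), spike-in scaling, the series matrix, no filter, all probes averaged, a replicate block, the slide, and leaving out arrays.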

Additional observations from a re-analysis of the deposited data

Results flagged for a closer look

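Members whose calls against mock had opposite directions at 6 h and 48 h of AP20187 were looked at again where the difference between the times also passed the test. There were 3. Rfc5 changed by -1.27 between 6 h and 48 h (limma, adjusted p = 6.2e-06), Lig1 by -0.55 (adjusted p = 2.8e-04) and Ccne1 by -0.55 (adjusted p = 2.9e-04). Both 48 h arrays lay below both 6 h arrays in each gene, which choosing the genes by this difference makes likely. Time and slide cannot be told apart in this comparison. With spike-in scaling the change of Rfc5 still passed, while those of Lig1 and Ccne1 were -0.45 each and did not (adjusted p = 0.15 and 0.14). Against mock at 48 h that scaling put Rfc5, Lig1 and Ccne1 at 0.48 each, so their opposite directions did not stand under it. Quantile normalization put Lig1 at 0.02 there.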

How the results depend on the processing

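The number of arrays and the slides limit all counts. Quantile normalization changed the members lower to 1, 0, 1 and 4 at 6, 12, 24 and 48 h and to 0 in Fv2E-PERK against wild-type mock, and put Gins3 and Rpa1 at 24 h at 0.01 and 0.05 and Pcna and Lig1 at 48 h at 0.02. Normexp left 5 members lower with palmitate against untreated and 1 against oleate. Spike-in scaling left 0 lower in palmitate against untreated or oleate (Rfc3 at 0.02 in the latter), at all 4 AP20187 times and in the mock comparison, where 0 were higher, and 3 lower and 2 higher at 48 h against 6 h. It turned Fen1 to 0.15, 0.31, 0.64 and 0.15 at 6, 12, 24 and 48 h, Gins3 to 0.19 and 0.69 at 12 and 24 h, Rpa1 to 0.72 and 0.37 at 24 and 48 h, Tk1 to 0.67 at 24 h, and Pcna, Rfc5, Lig1 and Ccne1 to 0.30, 0.48, 0.48 and 0.48 at 48 h. At 48 h against wild-type mock, 32 members were higher and 0 lower, and Rfc5 and Tk1 were at 0.52 and 0.25. The series matrix gave 0 members lower with palmitate against untreated and oleate, with medians of -0.42 and -0.39 under a shift of all entries by -0.23 and -0.29. Without the filter on dim probes these counts were 2 and 0, and the mock comparison had 9 higher and 0 lower. With the slide as a block, 1 member was lower for palmitate against oleate. Palmitate replicate 3 is alone on its slide, so that block amounts to leaving it out. For the PERK experiment the arrays on the Fv2E-PERK mock slide were fitted alone instead, and 2 members were lower at 24 h. Without palmitate replicates 1 and 2, palmitate lowered 0 members against untreated and 0 against oleate, and 1 was higher than with oleate, with medians of -0.13 and -0.07 against -0.18 and -0.10 over all arrays. That fit rests on 1 palmitate array on a slide of its own. With the replicate block, 2 members were lower for palmitate against oleate, and the block moved no other count of members by over 1.5 times. Same-numbered arrays of different groups correlated at -0.03 to 0.04 and -0.01 to 0.13 in their deviations from the group means. In the fatty acid experiment 7 of 9 arrays were closer to their own number, and in the PERK experiment 12 of 12. The 2 deviations of a PERK group mirror each other, so its 2 arrays always give the same verdict and the 12 are not separate counts. The main fit did not take the numbers as pairs, although the PERK arrays leaned towards their own number. The replicate block above allows for such pairs.

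Leaving out single arrays gave 5 to 12 members lower in palmitate against untreated and 0 to 5 in palmitate against oleate. At 6 h 2 to 3 were lower and 21 to 24 higher, at 24 h 1 to 5 and 23 to 26, and at 48 h 4 to 9 and 17 to 19 (4 lower without 48 h replicate 2, 5 without mock replicate 1). At 24 h, 1 was lower without Fv2E-PERK mock replicate 1 and 2 without 24 h replicate 2. For 48 h against 6 h they were 11 to 15 lower and 2 to 4 higher (2 without 6 h replicate 2 or either 48 h replicate), and for Fv2E-PERK against wild-type mock 0 to 1 lower and 3 to 15 higher. The causes were not tested.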
